A study of Homo sapiens with 6 samples.

Results

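Heat shock proteins are molecular chaperones, and the group described here comprised 10 human genes. It held the HSP70 genes HSPA8, HSPA5 and HSPA9, whose products bind unfolded protein, the HSP110 genes HSPA4 and HSPH1, the cytosolic HSP90 genes (HSP90AA1 and HSP90AB1), the mitochondrial chaperonin HSPD1, the J-domain co-chaperone DNAJB1, and HSF1, the transcription factor that induces many of them. The genes were taken by name and were all found among the 19864 protein-coding genes of chromosomes 1 to 22 and X in GENCODE release 29. Every peak of the deposited lists within 500 bp of an annotated transcript start of a member was taken as its start peak. Peaks within 50 kb of the gene body that lay more than 500 bp from every annotated start of any gene were taken as its distal peaks.

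The samples were 6 precision run-on sequencing libraries from K562, an established human leukaemia line, and compared a quick form of the assay with the published one. Run-on sequencing maps RNA polymerase that is engaged on DNA, because permeabilized cells extend their nascent RNA with biotin-labelled nucleotides before it is purified and sequenced. There were 3 groups of 2 replicates: PRO-seq 1M, made by the published protocol with biotin on C and U; qPRO-seq 1M, made by the quick one from the same input of 1M permeabilized cells; and qPRO-seq 250k, made by the quick one from 250k cells. All cells were untreated and grown in RPMI medium with serum, the biological replicates were at least 3 passages apart, and libraries had 11 PCR cycles for the larger input and 14 for the smaller. No group was heat shocked, so every value below describes unstressed cells.

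Each group had 1 list of peaks from dREG, which marks promoters and enhancers in use by the run-on signal it sees on the plus and minus strands. The lists held 24707 peaks for PRO-seq 1M, 38177 for qPRO-seq 1M and 15562 for qPRO-seq 250k on the chromosomes used. Values for the 3 lists are given in that order throughout. The lists give no read counts, so depth was unknown. One list stood for both replicates of its group, so the variation among replicates was unknown and no test between lists was made. Scores ranged from 0.267 to 1.47, from 0.237 to 1.54 and from 0.281 to 1.39. Each was turned into a percentile, the share of peaks of the same list that score at or below it. Percentiles from lists of different length place a peak within its list and do not measure a change. The labels call the line lymphoblastoid. The erythroid genes GATA1, TAL1, KLF1, NFE2, TFRC, HBG1 and HBE1 had a start peak in every list. Of the lymphoid genes, EBF1 had one in both 1M lists, at percentiles of 31.9 and 50.7, whereas CD79A, CD79B, MS4A1, PAX5, CD3E and PTPRC had none in any list.

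In the textbook account of the heat shock response, HSF1 is held inactive by chaperones, forms trimers when unfolded protein accumulates, and binds heat shock elements, which are inverted repeats of the bases GAA. Polymerase that has started but waits a short way into the gene is a known feature of heat shock promoters, which makes run-on data informative about them before any stress. The chaperone of the endoplasmic reticulum, HSPA5, answers instead to the unfolded protein response through the ER stress element, and several members (HSPA8, HSP90AB1, HSPA9, HSPD1) serve growing cells as constitutive chaperones.

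The promoter sequences that carry these elements are shown first, and the account of each gene says whether a start peak covers them. RefSeq promoter windows (build GRCh38.p14, 250 bases before to 50 after a start) were matched for 9 members, 15 windows in all, and searched on both strands. The promoter of HSF1 was not searched. The element of 2 units was GAANNTTC or TTCNNGAA, where N is any base. The element of 3 units was GAANNTTC followed by NNGAA, so each match of 3 units also holds matches of 2. It was found in 4 of the 15 windows, 1 each of HSPA8, HSP90AA1, HSP90AB1 and HSPD1, and in 0.489% of 34961 windows genome-wide. The 2-unit form was found in 7 of the 15 windows, of the same 4 members with HSPA9 and DNAJB1, and in 13.5% of all windows. Sites of 29 bases on the strand of the gene follow, with the heat shock element in capitals. Named by distance from the RefSeq start, HSPA8 had a distal site at chr11:123062346-123062374 and a proximal one at chr11:123062171-123062199 on the minus strand. The sites of HSP90AA1 at chr14:102087112-102087140 and of HSPD1 at chr2:197500062-197500090 were also on the minus strand.
HSPA8 distal: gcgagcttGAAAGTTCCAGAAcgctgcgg
HSPA8 proximal: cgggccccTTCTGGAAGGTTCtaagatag
HSP90AA1: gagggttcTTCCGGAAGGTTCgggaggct
HSPD1: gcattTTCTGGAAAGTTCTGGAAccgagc
Counted from the RefSeq start, the first capital lies at -230 and -55 for HSPA8, at -88 for HSP90AA1 and at -245 for HSPD1. These RefSeq starts lie 199, 147 and 434 bp further into the gene than the main starts of HSPA8, HSP90AA1 and HSPD1. The proximal HSPA8 element and those of HSP90AA1 and HSPD1 thus lie downstream of the main start. The distal HSPA8 element lies upstream of it. All of these elements lie upstream of the RefSeq starts, and which start the cells use was not tested. The window of the HSPD1 main start held neither form of the element. The HSPD1 run is longer because 2 matches of 3 units overlap in it.

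HSP90AB1, like HSPD1, carried its 3-unit elements not in the window of its main start but in that of a RefSeq start further into the gene. That start is at 44247943, and the first capitals lie at -165 and -112 from it. The printed run is chr6:44247693-44247865 on the plus strand, with both elements in capitals.
HSP90AB1: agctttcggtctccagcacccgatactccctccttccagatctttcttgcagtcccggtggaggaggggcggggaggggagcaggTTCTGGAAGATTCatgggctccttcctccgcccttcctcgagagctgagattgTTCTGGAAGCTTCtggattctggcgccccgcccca
DNAJB1 had no 3-unit match. Its main window held a pair of 2-unit elements, with the first capitals at -77 and -47 from the RefSeq start, in the run chr19:14518421-14518647 on the minus strand.
DNAJB1: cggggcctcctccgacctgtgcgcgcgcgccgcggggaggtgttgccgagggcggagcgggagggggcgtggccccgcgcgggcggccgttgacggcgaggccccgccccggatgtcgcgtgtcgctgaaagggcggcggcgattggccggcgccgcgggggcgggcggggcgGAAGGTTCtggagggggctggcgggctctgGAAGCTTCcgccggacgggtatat
HSPA5 had no heat shock element in its window. Among the 9 members searched it alone held the ER stress element, CCAAT and CCACG separated by 9 bases, which 0.0772% of all windows hold (27 windows). Its capitals begin at -66 in the run chr9:125241344-125241593 on the minus strand.
HSPA5: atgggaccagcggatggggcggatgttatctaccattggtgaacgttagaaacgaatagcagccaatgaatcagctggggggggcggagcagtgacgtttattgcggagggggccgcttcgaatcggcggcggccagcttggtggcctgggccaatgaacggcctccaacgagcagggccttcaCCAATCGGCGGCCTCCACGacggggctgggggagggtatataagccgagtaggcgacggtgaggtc
HSPA4 and HSPH1 had neither element in their windows. The only HSPH1 window was that of a start at -461 bp from its main start, so the promoter of that main start was not searched. CCAAT occurred in 6 of the members' 15 windows beside 34.6% of all windows, GGGCGG in 14 beside 45.0%, and TATAAA in none beside 11.5%. A match is a run of letters, and binding of a factor was not measured.

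All 10 members had a start peak in each of the 3 lists. Genome-wide, 52.9% of protein-coding genes had one in PRO-seq 1M (Wilson 95% interval 52.2 to 53.6), 54.5% in qPRO-seq 1M (53.8 to 55.2) and 44.0% in qPRO-seq 250k (43.3 to 44.7), and 43.1% (42.4 to 43.8) had one in all 3. These intervals cover counting error alone. The median percentile of the members' top start peaks was 94.9, 97.2 and 87.4, beside 76.4, 80.7 and 68.2 over all genes with a start peak. The top peak lay above the median of those genes for 8, 10 and 8 members. HSP90AB1 and HSF1 were below it in PRO-seq 1M, and HSPD1 and HSF1 in qPRO-seq 250k. In qPRO-seq 1M the result depended on the starts used. By the best peak within 500 bp of a principal transcript start, HSPD1 (64.9) and HSF1 (51.0) were below the corresponding median of 80.5. The deposited p-values of the members' start peaks ran from 0 to 0.0448.

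**Figure D1:**
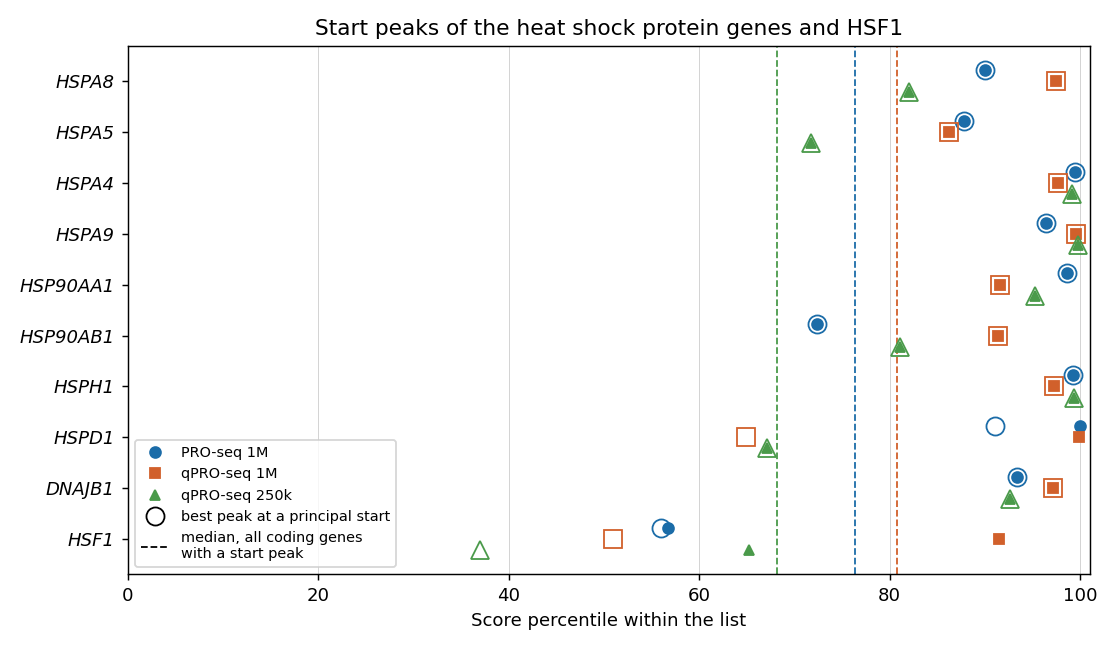
Score percentile within the list (x axis, 0 to 100) of the top start peak of each member (filled symbols) and of the best peak within 500 bp of a principal transcript start (open symbols), for the 3 lists. Dashed lines are the medians over all protein-coding genes with a start peak, 76.4, 80.7 and 68.2; HSPA4, HSPA9 and HSPH1 lie at 96.4 or above in every list, and filled and open symbols part for HSPD1 and HSF1.

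Among the 3 HSP70 members, HSPA9 had the start peak of highest percentile in every list. HSPA9 encodes mortalin, the HSP70 of mitochondria that pulls imported proteins through the inner membrane. A single peak covered its start on chromosome 5 in each list, of 900, 960 and 980 bp, with scores of 1.13, 1.24 and 1.17. The percentiles were 96.4, 99.5 and 99.8, which gave it rank 5, 2 and 1 among the members. The centres of the peaks lay close together, at 138575670, 138575640 and 138575630. Its RefSeq window, at a start 323 bp into the gene, held a 2-unit element whose first base lies at -4 from that start. The bases before its main start were not searched.

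HSPA8 encodes the constitutive cytosolic HSP70, which folds new proteins and uncoats clathrin vesicles. Its top start peak had percentiles of 90.0, 97.4 and 82.1, and scores of 1.03, 1.12 and 0.806. In qPRO-seq 1M 1 peak of 1590 bp (chr11:123061421-123063010) covered the whole start region. The other lists held a stronger and a weaker peak within a part of that stretch, the weaker one at percentile 66.3 in PRO-seq 1M and 11.4 in qPRO-seq 250k. Both heat shock elements printed above lay inside the stronger peak in all 3 lists. A further peak at chr11:123060431-123060790, near transcripts annotated to begin inside the gene, occurred in qPRO-seq 250k alone at percentile 47.2.

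HSPA5 encodes BiP, the HSP70 of the endoplasmic reticulum. It has 1 annotated transcript. Its top start peak reached percentiles of 87.8, 86.2 and 71.7, the lowest of the 3 HSP70 members in every list. Of all genes with a start peak, 71.9%, 62.0% and 54.6% ranked at or below it. In qPRO-seq 1M the start region was divided in 2. The top peak covered the start itself, and a second peak of percentile 38.4 lay 110 to 319 bp into the gene. The ER stress element lay inside the top peak of each list.

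HSPA4 and HSPH1 encode HSP110 proteins, which act as nucleotide exchange factors for HSP70. HSPA4 had percentiles of 99.4, 97.7 and 99.2, with scores of 1.24, 1.13 and 1.11. HSPH1 had 99.2, 97.2 and 99.3, with scores of 1.22, 1.12 and 1.12. The members of this pair thus differed from each other by less than 1 percentile in every list, and in qPRO-seq 250k 98.6% and 98.8% of genes with a start peak ranked at or below them. HSPA4 also had a peak further into the gene in all lists, at chr5:133052591-133053160 in PRO-seq 1M, with percentiles of 31.7, 77.4 and 10.6. HSPH1 had an extra start peak in qPRO-seq 1M alone, upstream at chr13:31162551-31163180 and percentile 24.4.

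The cytosolic HSP90 genes had several start peaks each. HSP90AA1, the stress-inducible HSP90, had its top peak at percentiles of 98.6, 91.6 and 95.2 over the main start on chromosome 14, where its heat shock element lay inside the peak in all lists. It also has annotated starts far upstream, at -52274 to -52508 bp from the main one. Peaks there, all shared with WDR20, had best percentiles of 80.3, 85.4 and 80.8. HSP90AA1 held 4, 6 and 2 start peaks, the most of any member in qPRO-seq 1M. HSP90AB1, the constitutively expressed HSP90, had 3, 4 and 2 start peaks, and the top one, over the main start on chromosome 6, reached 72.4, 91.4 and 81.1. The heat shock elements of HSP90AB1 lay away from that peak. In PRO-seq 1M both were inside a weak peak at chr6:44247511-44247870, percentile 6.81. In qPRO-seq 1M the corresponding peak (percentile 39.2) ended at 44247830 and held the first element but not the second. In qPRO-seq 250k no peak overlapped either.

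HSPD1 encodes the mitochondrial HSP60 chaperonin, and its top percentile in the 1M lists depended on which annotated start was used. Within 500 bp of the main start on chromosome 2 the best peak stood at 91.0, 64.9 and 67.1. The peak that covered the main start itself stood at 91.0, 57.4 and 45.8. PRO-seq 1M had a single peak of 1090 bp there, chr2:197499531-197500620, with a score of 1.05. qPRO-seq 1M divided the same stretch into 3 peaks with percentiles of 30.0, 64.9 and 57.4, and qPRO-seq 250k into 2 with 67.1 and 45.8. The printed element lay inside the best of these peaks in each list. A transcript of HSPD1 annotated to begin at -16463 bp has a far stronger peak close by, at 99.9 in both 1M lists with a score of 1.33. That peak also lay at the start of MOB4, a gene on the opposite strand. Its centre was 97 and 88 bp from a MOB4 start in the 1M lists, and 787 and 817 bp from the HSPD1 one. The lists do not say which gene its score belongs to. In qPRO-seq 250k the peak on the MOB4 start, chr2:197515491-197516140, stood at 98.0 but lay 597 bp from the HSPD1 transcript, outside the window of 500 bp. It was looked up after the other values were seen.

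DNAJB1 encodes the major J-domain partner that stimulates the ATPase of cytosolic HSP70. Its top peak stood at 93.4, 97.1 and 92.7. qPRO-seq 1M had 1 peak over the main start on chromosome 19, chr19:14518141-14519040. PRO-seq 1M and qPRO-seq 250k divided this region into 2 peaks, with second percentiles of 76.3 and 88.5. In PRO-seq 1M the element at -77 lay across the edge of the top peak, wholly inside neither. A second start further upstream had peaks with best percentiles of 81.2, 70.3 and 58.0.

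HSF1 had rank 10, 8 and 10 among the members by its top start peak. Its percentiles were 56.7, 91.5 and 65.2, with scores of 0.675, 0.998 and 0.663. Among all genes with a start peak, 24.3%, 75.8% and 46.2% ranked at or below it. The peak over the main start on chromosome 8 had percentiles of 56.0, 51.0 and 28.0, and qPRO-seq 250k had another at 37.0 between it and the top peak. The top peak was another one, centred 902, 952 and 1022 bp into the gene, near another annotated start 982 bp in. In PRO-seq 1M the difference between these peaks was 56.7 against 56.0, whereas in qPRO-seq 1M it was 91.5 against 51.0. The 3 protein-coding genes whose top percentiles lay nearest to those of HSF1 over the 3 lists, out of 8565 compared, were MAGT1 (55.6, 95.1 and 66.4), ITGAE (59.1, 93.8 and 63.2) and HASPIN (58.2, 93.8 and 61.9). Their Euclidean distances from HSF1 were 3.88, 3.88 and 4.32 percentile points.

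Start peaks were more numerous per member than the average over genes. The members held 22, 29 and 21 start peaks, a mean of 2.2, 2.9 and 2.1 per gene beside 1.70, 1.96 and 1.41 over all genes with a start peak. At least 2 start peaks were found for 7, 8 and 7 members and for 49.6%, 61.6% and 32.7% of those genes. The median length covered by start peaks was 1230, 1585 and 1285 bp per member, beside 780, 900 and 570 bp. Members also have many annotated starts, from 1 for HSPA5 to 20 for HSPA8, and the part of that number in the peak count was not tested.

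**Figure D2:**
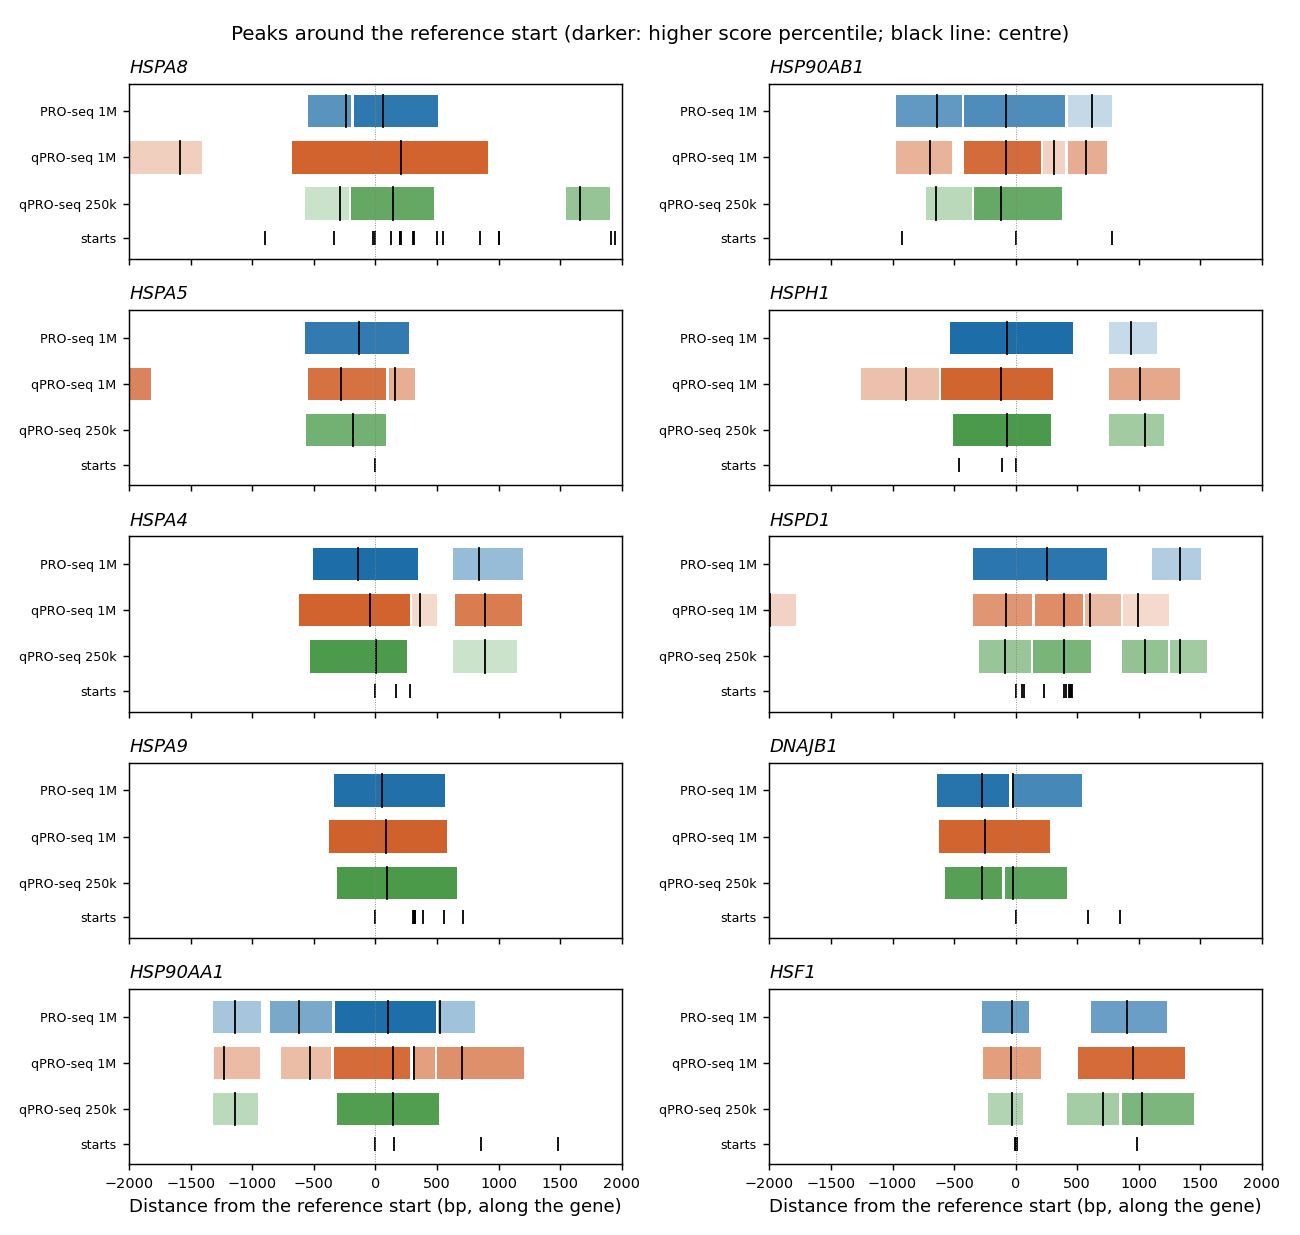
Peaks of each member (bars) by distance in bp from its reference start (0, dotted line), in the direction of transcription, with 1 row per list. Darker bars have higher score percentiles, black lines are peak centres, and ticks in the lowest row are annotated transcript starts of the member. HSPA9 has 1 bar per list, HSP90AA1 and HSPD1 have the most, and HSF1 has its darker bars about 1 kb into the gene.

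Of the 10 members, 6 had a start peak that also lay within 500 bp of another gene's start. The shared peaks numbered 9 of 22, 13 of 29 and 7 of 21, and counting protein-coding partners alone 6, 9 and 5. Over all start peaks of protein-coding genes, 32.3%, 30.8% and 34.4% were shared with any gene and 15.5%, 14.8% and 17.0% with a protein-coding one. HSPD1 and HSPE1, the chaperonin and its co-chaperonin, lie on opposite strands. Their nearest annotated starts are 53 bp apart, placed so that transcripts from them overlap. The readthrough gene HSPE1-MOB4 starts 139 bp from HSPD1. HSP90AA1 shared its upstream start with WDR20, a regulator of a deubiquitinase complex, at 38 bp. The upstream start of DNAJB1 lay 73 bp from TECR, an enzyme of fatty acid elongation, and 221 bp from the microRNA gene MIR639. HSF1 and BOP1, a ribosome biogenesis gene, are divergent with 221 bp between starts. HSPA5 shared its start peaks with the antisense transcript AL354710.2 at 333 bp, and HSPA4 shared 2, 2 and 1 peaks with AC113410.3, whose annotation awaits experimental testing, at 528 bp. The shared peaks of HSPA4 included its top peak in PRO-seq 1M alone. HSPA8, HSPA9, HSP90AB1 and HSPH1 shared no start peak. A dREG peak carries no strand, so the score of a shared peak cannot be divided between the genes.

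Start peaks of the 3 lists were joined where they overlapped by at least 1 bp, which gave 21 regions. Of these, 16 (76.2%) had a peak in all 3 lists, beside 52.5% (51.7 to 53.2) of 17370 start-near regions genome-wide. The share depended on the joining rule: with centres within 100 bp, 14 of 38 regions were in all lists, and where each peak had to be covered by 50% or more 14 of 37, and no genome-wide share was computed under those rules. Of the regions joined at 1 bp, a further 3 were in both 1M lists: the upstream flank of HSP90AA1, the HSP90AB1 region that holds its heat shock elements, and a region upstream of DNAJB1. The remaining 2 were in 1 list each, the HSPH1 flank in qPRO-seq 1M and the HSPA8 internal peak in qPRO-seq 250k. Every member had at least 1 start region in all 3 lists.

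The members' distal peaks had lower percentiles than their top start peaks. A top start peak is the best of several for most members, which favours that order. The weakest start peaks of the members, at 6.81, 3.43 and 10.6, lay within the range of the distal peaks. There were 13 distal peaks of members in PRO-seq 1M, 34 in qPRO-seq 1M and 6 in qPRO-seq 250k. The lists held 7885, 17501 and 4125 distal peaks in all. With each list reduced to its 15562 top-scored peaks, the members had 3, 6 and 6. In the full lists the mean was 1.3, 3.4 and 0.6 per member beside 1.00, 2.09 and 0.552 per gene with a start peak. The median percentile of the members' distal peaks in the full lists was 17.9, 38.9 and 30.3, beside 33.9, 39.6 and 35.2 over all distal peaks. HSPA8 had 1 and HSPA9 had 1, in qPRO-seq 1M alone, and HSPA5 had the most in that list with 8. Distal peaks were assigned by distance, and contact with a member's promoter was not measured.

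**Figure D3:**
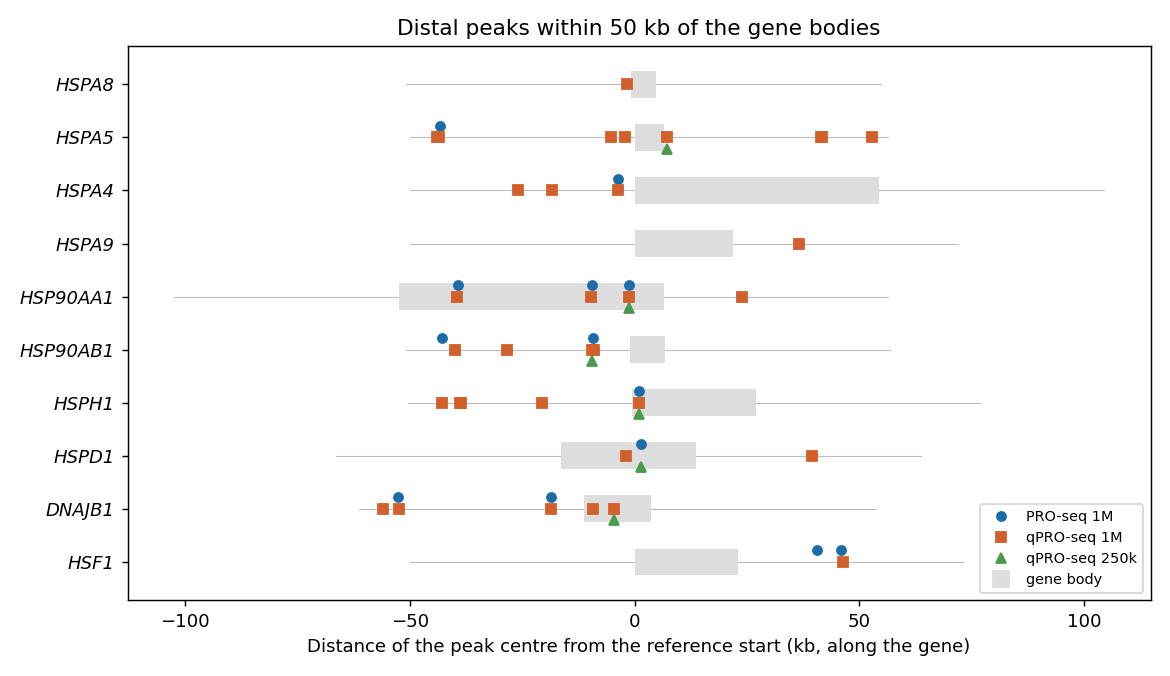
Centres of the distal peaks by distance in kb from the reference start of each member, in the direction of transcription, with 1 symbol per list. Grey boxes are gene bodies and thin lines the 50 kb searched on each side. qPRO-seq 1M symbols are the most numerous (34 of them), and columns of 3 symbols occur at HSP90AA1, HSP90AB1 and HSPH1.

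Joined over the lists, the members had 34 distal regions, of which 3 (8.82%) were found in all lists, beside 16.2% (15.6 to 16.7) of 16938 distal regions genome-wide. Another 6 were in both 1M lists, 2 in both qPRO-seq lists, 3 in PRO-seq 1M alone and 20 in qPRO-seq 1M alone. The 3 regions of all lists belonged to HSP90 and HSP110 genes. One lay in an intron of HSP90AA1 at chr14:102088121-102088510, with percentiles of 22.9, 28.2 and 21.8. The second lay in an intron of HSPH1 at chr13:31160591-31161170, with 5.66, 43.1 and 39.4. The third was intergenic, with its nearest start that of the nucleoside transporter gene SLC29A1, at chr6:44237311-44238390, upstream of HSP90AB1, with best percentiles of 45.0, 26.2 and 61.0. Not counted among the 34 were 3 regions in which a distal peak of a member was joined to a start-near peak of another list. They lay at ZCCHC10 near HSPA4, at B3GLCT near HSPH1 and at chr2:197498721-197499410 in HSPD1, the last of which is also among the 21 start regions.

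The highest distal peak of each list was a different one. In PRO-seq 1M it was an intergenic peak 3592 bp upstream of HSPA4, chr5:133047941-133048370, at percentile 58.5, and qPRO-seq 1M had it at 68.3. In qPRO-seq 1M it was a peak in an intron of B3GLCT upstream of HSPH1, chr13:31204631-31205020, at 73.3, found in that list alone. In qPRO-seq 250k it was the intergenic peak 8206 bp upstream of HSP90AB1, at 61.0. HSPA5 had its top distal peak of qPRO-seq 1M at 72.2, in an intron of the antisense transcript AL354710.2 and 1821 bp upstream of the gene, and its only PRO-seq 1M one at 43.2 in an intron of GAPVD1. Its single qPRO-seq 250k peak, at 17.5, overlapped an exon of RABEPK. DNAJB1 had a peak over an exon of TECR at 31.4 and 71.9 in the 1M lists, and its only qPRO-seq 250k peak, in an intron of DNAJB1 and TECR, at 3.41. HSF1 had its distal peaks downstream at SCRT1, at 17.9 in PRO-seq 1M and 51.1 in qPRO-seq 1M, and none in qPRO-seq 250k. The remaining top distal peaks were an exonic one of HSPD1 (17.0 in PRO-seq 1M, 38.8 in qPRO-seq 250k), one in an intron of COQ10B near HSPD1 at 15.7 in qPRO-seq 1M, one in an intron of ETF1 near HSPA9 at 36.2, and one just upstream of HSPA8 at 12.9. In qPRO-seq 1M the top ones of the HSP90 genes were a peak at 37.8 in an intron of AL118558.1 near HSP90AA1 and one at 47.0 near RN7SL811P, upstream of HSP90AB1.

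The wider chaperone system was described with 68 related genes in 9 families. Of these, 54, 52 and 51 had a start peak, and 50 (73.5%) had one in all lists. Read against the genome-wide 43.1%, this share was higher than the background and lower than that of the members. All 9 chaperonin genes (HSPE1 and the CCT complex, which folds actin and tubulin) had a start peak in every list, as did both HSP110 genes (HSPA4L and HYOU1) and both HSP90 genes (HSP90B1 and TRAP1). J-domain genes had one in all lists for 12 of 15 and co-chaperones for 13 of 16. In the other HSP70 genes it was 4 of 9, and in the small heat shock proteins 5 of 10. The top percentiles of qPRO-seq 1M were those of DNAJB4, a J-domain protein (99.8, 99.9 and the highest score of all qPRO-seq 250k peaks), SERPINH1, the collagen chaperone of the endoplasmic reticulum (98.9, 99.8 and 99.8), and CHORDC1, an HSP90 co-chaperone (99.97, 99.8 and 99.9). The top peak of DNAJB4 also lay near starts of FUBP1 and GIPC2 in PRO-seq 1M and near AC103591.3 in both qPRO-seq lists. That of CHORDC1 lay near AP002364.1 in all lists.

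**Figure D4:**
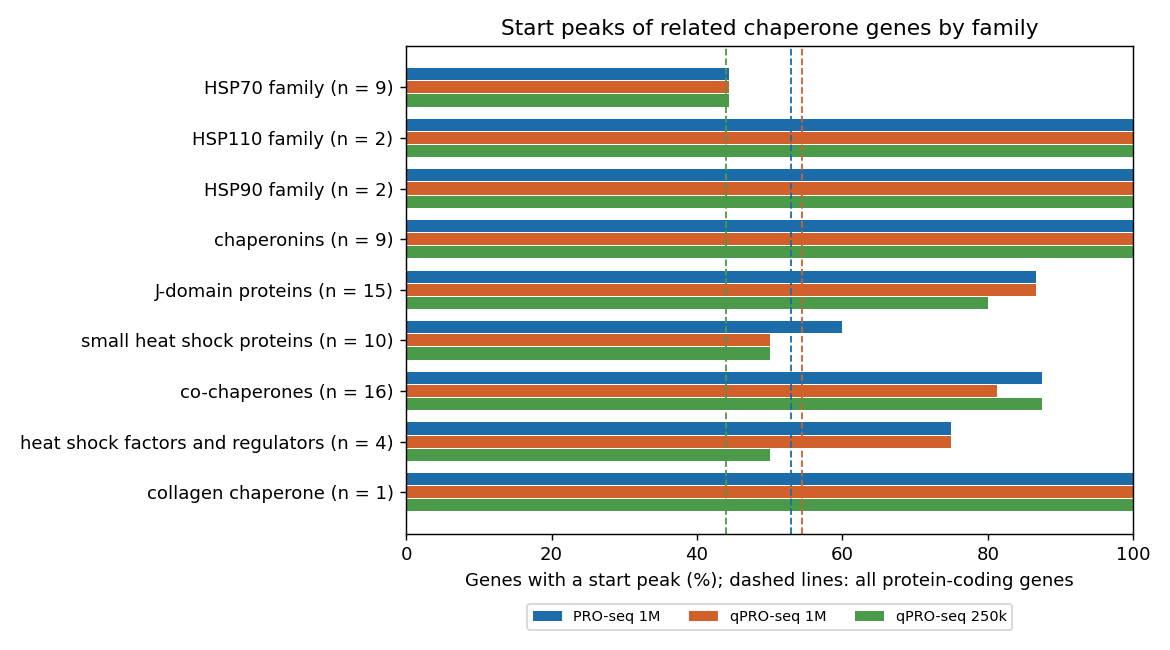
Share of related chaperone genes with a start peak (x axis, %) by family and list, with the number of genes after each name. Dashed lines are the shares of all protein-coding genes, 52.9%, 54.5% and 44.0%; the other HSP70 genes stand at 44.4% in each list and all 9 chaperonins have a start peak.

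Without a start peak in any list were 14 related genes. They were HSPA1A, HSPA1B and HSPA1L, the HSP70 genes of the major histocompatibility complex, HSPA2 and HSPA12B of the same family, the J-domain genes DNAJA3 and DNAJA4, the small heat shock genes HSPB3, HSPB7, HSPB8 and CRYAA, the co-chaperones BAG6 and STUB1, and the heat shock factor HSF5. Another 4 had one in some lists: DNAJB14 in both 1M lists (40.8 and 25.2), HSPB9 in PRO-seq 1M (23.3, at a peak shared with KAT2A), BAG2 in PRO-seq 1M (15.8) and in qPRO-seq 250k (25.0), and HSF4 in both 1M lists (27.4 and 1.498). The lists held no peak on chromosome 6 around HSPA1A, HSPA1B, HSPA1L and BAG6 for a stretch far longer than these genes. The empty stretch ran from 28616430 to 33570811 in PRO-seq 1M, from 31620740 to 33414461 in qPRO-seq 1M and from 28492130 to 33571191 in qPRO-seq 250k, and held the starts of 178, 95 and 181 protein-coding genes. HSPA1A and HSPA1B are also near-identical copies. The part of the empty stretch or of the near-identity in the missing peaks was not tested.

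Processed copies of the members could share their reads. By name, 36 annotated pseudogenes belonged to members: 17 to HSPA8, 17 to HSPD1, 1 to HSPA9 and 1 to DNAJB1. None had a start peak in any list. Pseudogenes of the HSP90 genes are named by another pattern and were not counted.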

How the data were processed

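The deposited files were 3 dREG peak lists, 1 per group of 2 libraries. Per the submitters' processing notes, the tools were fastp 0.20.0, Bowtie2 2.3.5.1, deepTools 3.1.3 and UMI-tools and the builds hg38 and GRCh38. The dREG version, its thresholds and the pooling of replicates are not given in the sources used here. The score of each peak is the authors' deposited value and has no fixed unit. The p-value is also as deposited, was at most 0.05 in each list, and nothing states whether it was adjusted. Positions were deposited by the authors counting from 0 and are printed counting from 1.

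Peaks on chromosomes 1 to 22 and X were compared with GENCODE release 29. The 75, 220 and 44 peaks on other sequences stayed out of all comparisons. Principal starts were those of transcripts with the best APPRIS tag of the gene, and the reference or main start is the principal one that most protein-coding transcripts share. Percentiles, counts and regions (peaks joined at 1 bp or more of overlap) were computed with Python 3.11.15, pandas 2.3.3 and numpy 2.4.6, and figures were drawn with matplotlib 3.10.9. The scripts were tested on simulated peaks. Depth was unknown, and Wilson intervals (statsmodels 0.14.6) cover counting error alone. With 1 list per group no test was made.

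The members, the 68 related genes and the markers were chosen with earlier results of these data known. Genes named are the members, genes sharing their start peaks, genes at each member's top distal peak per list, related genes with a start peak in some or no lists, the 3 related genes of highest percentile in qPRO-seq 1M, the markers, and the 3 genes most like HSF1. Of the markers, 1 erythroid and 1 lymphoid gene are not reported here. Examples of the complete families and the KAT2A, FUBP1, GIPC2, AC103591.3, AP002364.1, ZCCHC10 and RABEPK neighbours were named outside that rule, after their values were seen. Alternatives were windows of 1000 bp, gene record starts, a p limit of 0.01, peaks at or above the median score, lists of equal length (15562 peaks), percentiles among start-near peaks, distances of 20 and 100 kb, merging within 500 bp, and stricter sharing (centres within 100 bp, or 50% overlap). Principal starts were added as an alternative after seeing the data.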

Additional observations from a re-analysis of the deposited data

Results flagged for a closer look

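Peaks on sequences outside the chromosomes compared were not used in any result. Alternate scaffolds of chromosome 6 held 25 peaks in PRO-seq 1M, 66 in qPRO-seq 1M and 16 in qPRO-seq 250k, of 44, 145 and 28 peaks on all alternate scaffolds. They drew attention because the same lists had no peak on chromosome 6 itself around HSPA1A, HSPA1B, HSPA1L and BAG6, over 4954380, 1793720 and 5079060 bp. The genes under these scaffold peaks were not looked up here, and their part in the absence of HSPA1A and HSPA1B was not tested. The libraries include no control sample, and the counts were not tested against a background.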

How the results depend on the processing

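All 10 members kept a start peak in every list under the alternatives run, except that with gene record starts HSPD1 had none in qPRO-seq 250k, which left 9 there and in all lists together. Of 85 alternative values, 18 moved beyond a set tolerance and 67 did not. The tolerance was 1.5 times for a count and, for a median percentile, the narrower 95% Wilson interval of a share of the list's peaks. The members' median percentile became 84.5, 91.7 and 71.7 with gene record starts only, 93.3, 96.3 and 85.0 among start-near peaks, 91.9 (PRO-seq 1M) and 93.1 (qPRO-seq 1M) at equal list length, and 92.2 and 94.4 there with principal starts. With a window of 1000 bp it was 93.9 in qPRO-seq 250k. With gene record starts the medians over all genes were 75.8, 80.2 and 67.6. Distal peaks numbered 21 (PRO-seq 1M) and 10 (qPRO-seq 250k) within 100 kb, 8 and 3 in the same lists with a window of 1000 bp, 19 in qPRO-seq 1M within 20 kb, and 3 (PRO-seq 1M) and 6 (qPRO-seq 1M) at equal length. Changes with distance, window and list length follow from how those alternatives were built, and for the others the cause was not tested. Start regions in all lists fell to 14 under both stricter rules, of 38 and 37, while distal ones stayed at 3 of 40. No paired analysis was possible because 1 list stood for both replicates of a group and no result came from a test, and for the same reason no replicate could be left out. Depth was unknown and sets what a list can detect.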

Other observations

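The heat shock element was compared with the peak lists over all promoters. Of the 34961 RefSeq windows, 34.2%, 35.6% and 27.4% were overlapped by a peak in the 3 lists, in the order used above. Among the 171 windows with a 3-unit heat shock element the shares were 25.1% (Wilson 95% interval 19.2 to 32.1), 32.2% (25.6 to 39.5) and 21.6% (16.1 to 28.4). All windows of the members that hold the element were overlapped by a peak in the 1M lists, and that of HSP90AB1 was not in qPRO-seq 250k. Among the 27 windows with the ER stress element, one of them that of HSPA5, the shares were 70.4% (51.5 to 84.1), 74.1% (55.3 to 86.8) and 55.6% (37.3 to 72.4). The differences were not tested, windows of one gene can overlap, and the intervals cover counting error alone.

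Some other related genes are given by their percentiles in the 3 lists. HSPB6, a small heat shock protein gene whose start peak is shared with PROSER3, stood at 39.1 in PRO-seq 1M, 95.2 in qPRO-seq 1M and 36.3 in qPRO-seq 250k. HSPA6, an HSP70 gene known for strict induction by stress, had start peaks at 29.9, 69.9 and 44.6. HSF2, a second heat shock factor, stood at 72.5, 92.3 and 82.4. CCT3, a subunit of the CCT chaperonin, stood at 95.5, 92.5 and 37.5, and DNAJB12, a J-domain protein, at 69.3, 90.7 and 42.9. HSPB1, a small heat shock protein, stood at 97.6, 99.4 and 99.8. These genes were picked after their values were seen, and the lists have no replicates to set the differences against.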
